A study of Sus scrofa with 9 samples.

Results

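The transcripts described here are the non-coding RNAs of porcine valvular interstitial cells (VICs) that carry no RefSeq name. VICs are the fibroblast-like cells that fill the aortic valve leaflet and keep up its matrix. Members were every row of the expression table whose identifier begins with TCONS, the kind of name a transcript assembler gives to a transcript it builds from reads, or with ENSSSCT, the prefix of Ensembl pig transcripts. There were 874 of them, 501 TCONS and 373 ENSSSCT, among 9888 non-coding transcripts and 35602 rows in all. The remaining 9014 non-coding transcripts carried RefSeq names.

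Porcine aortic VICs were taken from wild type pigs aged 4 to 5 months and grown in DMEM with 10% fetal bovine serum, after the valve endothelium had been wiped off. There were 3 groups, with 3 libraries in each. NC cells stayed in DMEM for 3 days. OIM cells were kept for 3 days in an osteogenic medium supplemented with insulin, with ascorbic acid at 50 µg/mL and with sodium dihydrogen phosphate at 2 mmol/L, which makes VICs deposit calcium and serves as a culture model of valve calcification. BFGF cells received the same osteogenic medium together with basic fibroblast growth factor at 50 ng/mL. These times are those of the labels, and the study's methods give a shorter time before RNA was extracted. Comparing BFGF with OIM asks what the growth factor changed in calcifying cells, and comparing OIM with NC asks what the medium changed. All 3 pairwise comparisons share libraries, so their results are given side by side and not as separate evidence. Nothing in the labels ties the libraries of a group to separate animals, so every p-value measures only the spread between these libraries.

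Long non-coding RNAs are transcribed by RNA polymerase II much as messenger RNAs are, and many are spliced and polyadenylated, but they are not translated into a known protein. Many are present at low levels, and some classes are removed quickly by nuclear decay machinery. Their annotation in pig is less complete than in human or mouse, which is why assembled models are often added to a reference before counting. No table given here paired any TCONS or ENSSSCT identifier with a gene, a position or a sequence. Individual transcripts are therefore described by their values, and 4 of them by identifier.

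The values are estimated counts, the output of programs that share reads among overlapping transcripts, and are not whole read counts. Of the values above 0, 99.7% in TCONS rows and 99.3% in ENSSSCT rows were not whole numbers. Levels are given as CPM, the estimated counts relative to each library's gene counts after TMM scaling, which corrects for differences in RNA composition. Longer transcripts collect more reads, and the lengths are not known, so a high CPM says that a transcript held many reads and not that it had many copies. The gene counts ran from 57075793 to 64723837 in the NC libraries, from 57682710 to 67371523 in OIM and from 46773376 to 48270827 in BFGF. All 11 of the mesenchymal VIC markers found in the table were above 1 CPM in every library. Their summed level was 64333 to 73722 CPM in NC and OIM libraries and 39160 to 39588 CPM in BFGF libraries. The 8 endothelial markers summed to 71.3 to 74.1 CPM in NC, 85.4 to 87.8 in OIM and 168 to 178 in BFGF, and 3 of them were at 1 CPM or more in every library. The 6 leukocyte and macrophage markers summed to 14.5 to 17.7 CPM in NC and OIM and to 8.69 to 9.30 CPM in BFGF, with 1 at 3 counts or fewer in every library. The 4 markers of activated interstitial cells summed to 10005 to 13343 CPM in NC and OIM and to 1682 to 1875 CPM in BFGF, and the 5 cardiomyocyte markers in the table to 1.95 to 3.73 CPM, with 2 at 3 counts or fewer in every library. Apart from the cardiomyocyte list, these marker sums differed between BFGF and the other libraries, as transcripts described below did, and their part in the results was not tested. In cultured cells sequenced in bulk, fewer cells of a type and less RNA per cell cannot be told apart.

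TCONS transcripts held far more of the reads than their number would give. Their estimated counts came to 3.05 to 3.41% of the gene counts of a library, against 0.672 to 0.774% for the 9014 RefSeq-named non-coding transcripts and 0.00809 to 0.0115% for the ENSSSCT transcripts. The TCONS total in turn lay in a handful of rows. The first transcript by CPM held 18.95% of the summed TCONS level, the first 10 held 79.1% and the first 50 held 96.5%. Among ENSSSCT transcripts the first held 33.7% of the sum and the first 10 held 70.1%. At the other end, 10 of 501 TCONS rows and 172 of 373 ENSSSCT rows were 0 in every library.

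With TMM scaling, the summed TCONS level was highest in NC, intermediate in OIM and lowest in BFGF. It was 33701, 36163 and 35728 CPM in the NC libraries, 32564, 32161 and 32262 CPM in OIM, and 28971, 27932 and 28912 CPM in BFGF. No library of one group overlapped with those of another. The BFGF mean of 28605 ± 583 (SD, n = 3) was 0.18 lower on the log2 scale than the OIM mean of 32329 ± 210 (SD, n = 3), and the OIM mean was 0.12 lower than the NC mean of 35197 ± 1314 (SD, n = 3). With 3 libraries against 3 the two-sided exact permutation test gave p = 0.1 for each of the 3 comparisons, the smallest value it can give, and 0.15 after Benjamini-Hochberg adjustment over 12 tests. The place of BFGF rested on the scaling. When library totals alone were used, which moved the median of all genes by 0.22 between BFGF and OIM on the log2 scale, the log2 ratio was 0.0453 between BFGF and OIM and -0.0744 between BFGF and NC, and BFGF overlapped with both. The OIM libraries still lay below NC, by 0.12 on the log2 scale. With TMM scaling and without the 10 most abundant transcripts, the log2 ratio between BFGF and OIM was -0.0735.

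**Figure D1:**
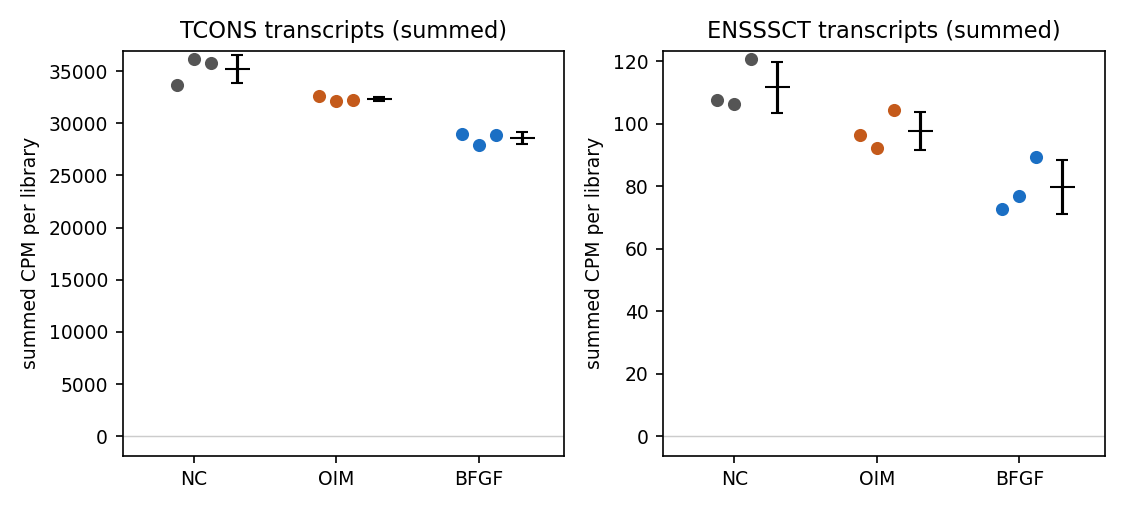
Summed level of all TCONS transcripts (left) and all ENSSSCT transcripts (right) in each library, in CPM on a linear axis. Coloured points are the 3 libraries of NC, OIM and BFGF, and black marks are the group mean ± SD; the TCONS sums lie at 33701 to 36163 CPM in NC and 27932 to 28971 CPM in BFGF, with no overlap between groups under this TMM scaling (with library totals alone BFGF overlaps both other groups).

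ENSSSCT transcripts summed to 108, 106 and 121 CPM in NC, 96.4, 92.2 and 104 CPM in OIM, and 72.8, 76.7 and 89.4 CPM in BFGF. The order of the groups was that of the TCONS sums and again none overlapped, with the same exact permutation p = 0.1 for each comparison. With library totals alone the BFGF and OIM libraries overlapped, at a log2 ratio of -0.0717, and NC stayed above both by a narrow margin. The lowest NC library was at 0.00995% of gene counts, the highest BFGF library at 0.00993% and the highest OIM library at 0.00987%. The difference between BFGF and OIM was not seen without the first 10 transcripts. With these left out, the sums were 28.02 ± 1.08 (SD, n = 3) in BFGF and 27.9 ± 3.51 (SD, n = 3) in OIM, and the libraries overlapped.

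The number of transcripts detected moved little. At 0.1 CPM or more, 408, 416 and 415 TCONS transcripts were detected in the NC libraries, 411, 421 and 420 in OIM, and 403, 407 and 402 in BFGF. The BFGF libraries lay below all OIM libraries, by 13.3 transcripts on average (exact permutation p = 0.1, two-sided). For ENSSSCT the numbers were 69, 60 and 62 in NC, 69, 61 and 62 in OIM and 64, 56 and 65 in BFGF, and the groups overlapped.

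Transcripts were then tested one at a time. After a filter on low counts, 430 of 501 TCONS and 59 of 373 ENSSSCT transcripts remained, together with 1731 RefSeq-named ones, and edgeR's quasi-likelihood test was fitted to all 2220 with Benjamini-Hochberg adjustment over them. A transcript was called when its adjusted p was at most 0.05 and its log2 fold change at least 0.5 in size. The transcripts that did not pass the filter were sparse, with no TCONS value above 171 and no ENSSSCT value above 41.8 estimated counts in any library.

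Between BFGF and OIM, more TCONS transcripts were called lower than higher. Of the 430 tested, 19 (4.42%) were called higher in BFGF and 45 (10.5%) lower, where 3.24% and 6.17% of all non-coding transcripts tested were called higher and lower. The median log2 fold change over the tested TCONS transcripts was -0.20, against -0.13 over all non-coding transcripts tested and about 0 (-0.0029) over genes. It became 0.02 with library totals alone, where 27 transcripts were called higher and 33 lower. RefSeq-named transcripts went from 52 called higher and 91 lower with TMM scaling to 84 and 66 with library totals alone. The TCONS median lay 0.195 below the gene median under that scaling. Rescaling moves genes and transcripts nearly alike, so this gap could hardly change and is no separate support. Of the 59 ENSSSCT transcripts tested, 1 was called higher and 1 lower, and their median was -0.085 (0.10 with library totals alone). When genes and non-coding transcripts were fitted together, 35 TCONS transcripts were called higher and 79 lower, and 2 and 4 ENSSSCT transcripts. The share of all non-coding transcripts called in that fit is not given, so these counts cannot be set against the shares above.

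All 64 called TCONS transcripts had BFGF libraries that did not overlap with the OIM libraries, as had all 209 called non-coding transcripts. With 3 libraries against 3 a call largely requires this, so it adds no support to the calls. Such separation was seen for 162 of the 430 tested (37.7%) and for 10 of the 59 ENSSSCT transcripts (16.9%), against 30.2% of all non-coding transcripts tested. The called higher transcripts had a median log2 fold change of 1.17, from 0.77 to 3.89, and 14 of the 19 were past 1. The called lower transcripts had a median of -1.45, and 32 of the 45 were past 1. In 4 of those 45 the BFGF libraries held no more than 3 counts each, so their folds are lower bounds, from at least 3.88-fold to at least 213-fold lower. When the 9 libraries were omitted in turn, 37 of the 64 were called every time. The count called higher was 11 without BFGF replicate 3, and the count called lower was 29 without BFGF replicate 1.

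**Figure D2:**
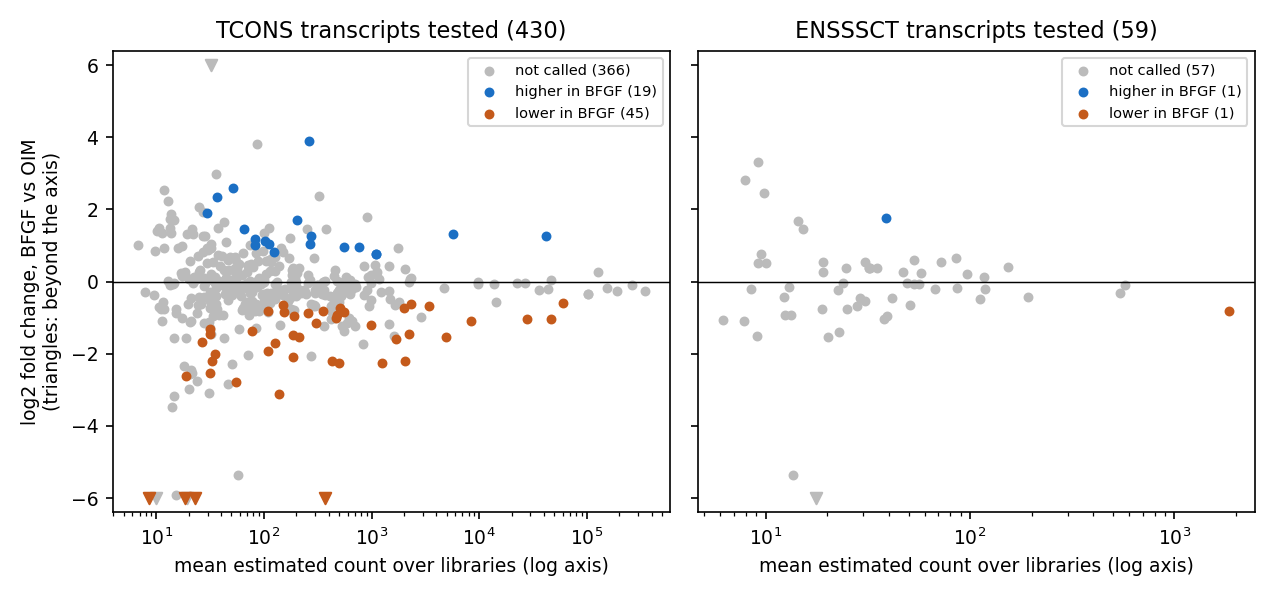
Log2 fold change between BFGF and OIM (vertical axis, edgeR) against the mean estimated count over the 9 libraries (horizontal log axis) for the 430 TCONS (left) and 59 ENSSSCT transcripts tested (right). Blue points were called higher in BFGF and orange points lower (19 and 45 on the left, 1 and 1 on the right), grey points were not called, and triangles lie beyond the axis, where at least 1 group is near 0.

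Calls were more frequent among transcripts with more reads. Of TCONS transcripts with a mean under 30 estimated counts 7.06% were called, rising to 8.89% between 30 and 100, 18.9% between 100 and 1000 and 31.4% over 1000. The RefSeq-named transcripts in the same ranges were called in 2.91%, 10.3%, 15.4% and 30.6% of cases. TCONS transcripts had a median of 97.4 estimated counts and RefSeq-named ones 28.2, so the prefixes were not tested at the same depth.

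The abundant TCONS transcripts mostly moved by small amounts. Of the first 16 by CPM, 13 had a negative log2 fold change in BFGF against OIM, and 9 had an adjusted p at or under 0.05, but only 4 of these also passed the fold limit, 1 higher and 3 lower. Over all non-coding transcripts tested, 57.6% of the log2 fold changes were negative and 10% had such an adjusted p. With library totals alone, 8 of the 16 were negative, 5 had an adjusted p at or under 0.05, and 1 was called higher and 2 lower. The first transcript stood at 5658, 6241 and 6629 CPM in OIM and at 5205, 5183 and 5117 CPM in BFGF, a log2 fold change of -0.26 (SE 0.061, adjusted p = 0.032 by edgeR), which is under the fold limit. Its NC libraries were at 6395, 6914 and 7315 CPM, overlapping with OIM. The transcripts ranked 6 and 7 had the same value as each other in every library, the only such pair among the TCONS rows above 0, and both are counted in the sums.

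The TCONS transcript with the smallest adjusted p ranked 10 by CPM and stepped down through the 3 groups. It was at 1059, 1127 and 1114 CPM in NC, 903, 872 and 924 CPM in OIM and 441, 433 and 429 CPM in BFGF. Each group lay clear of the next. The log2 fold change was -1.05 between BFGF and OIM (SE 0.036, adjusted p = 2.14e-06 by edgeR) and -0.29 between OIM and NC (SE 0.036, adjusted p = 0.0328), and the second is under the fold limit. The transcript ranked 14 had nearly the same change in BFGF, from 603, 543 and 508 CPM in OIM to 271, 268 and 262 CPM (log2 fold change -1.05, SE 0.069, adjusted p = 6.3e-05 by edgeR). The transcript ranked 8 was also called lower, at a log2 fold change of -0.60, just inside the fold limit.

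The member called higher among these 16 ranked 12 by CPM. It stood at 700, 592 and 419 CPM in NC, 557, 447 and 481 CPM in OIM and 1344, 1072 and 1149 CPM in BFGF. NC and OIM overlapped and BFGF lay above both (log2 fold change 1.26 against OIM, SE 0.18, adjusted p = 0.0033 by edgeR). Its number is the first of 4 consecutive TCONS numbers, which assemblers usually give to transcripts built next to each other, often alternative forms of one locus. The table does not say whether these are. The other members of the run were those ranked 2, 22 and 5, with log2 fold changes of -0.11 (adjusted p = 0.20), 1.32 (adjusted p = 0.0085) and 0.26 (adjusted p = 0.0080) by edgeR, so 2 of the 4 were called higher and the most abundant of the run was not called. Summed over the run, the level was 7404, 7602 and 7101 CPM in OIM and 8167, 8249 and 8337 CPM in BFGF. The sum was higher in every BFGF library, but by 0.16 on the log2 scale (SE 0.035, adjusted p = 0.018 by edgeR), which is under the fold limit. This run was singled out after its values were seen.

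Among called transcripts, TCONS_00011779 had the largest log2 fold change of those higher in BFGF. It was low without the growth factor, at 0.475, 0.768 and 0.614 CPM in NC and 0.941, 1.09 and 0.625 CPM in OIM. In BFGF it was at 14.04, 13.9 and 11.6 CPM, more than 10 times the highest value in the other 6 libraries. The log2 fold change was 3.89 against OIM (SE 0.27, adjusted p = 7.25e-05 by edgeR) and 4.39 against NC (adjusted p = 3.58e-05), and the call against OIM held whichever of the 9 libraries was omitted. OIM and NC overlapped (log2 fold change 0.51, adjusted p = 0.876).

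TCONS_00017653 had the largest fitted decrease. It was listed at 0 in all 3 BFGF libraries and stood at 9.56, 12.9 and 14.1 CPM in OIM, with a mean of 12.2 ± 2.35 CPM (SD, n = 3). Against the floor of 3 counts per library, the OIM mean was at least 213-fold higher. The NC libraries spread from 0.0892 through 5.77 to 13.7 CPM and overlapped with OIM. The adjusted p between BFGF and OIM was 0.0258 by edgeR, and the call was made in only 2 of the 9 fits with a library omitted. The number of this transcript lies in the longest run in the table, 11 consecutive TCONS numbers, and none of the other 10 was called. In 3 of those 10, libraries of 1 group also ranged from 0 to 20 CPM or more. Summed over the 11, the level was 118, 137 and 174 CPM in OIM and 153, 94.5 and 143 CPM in BFGF, and the groups overlapped (log2 fold change -0.13, SE 0.31, adjusted p = 0.865 by edgeR). The sum does not test the loss of this row, which held only a small share of it in OIM.

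**Figure D3:**
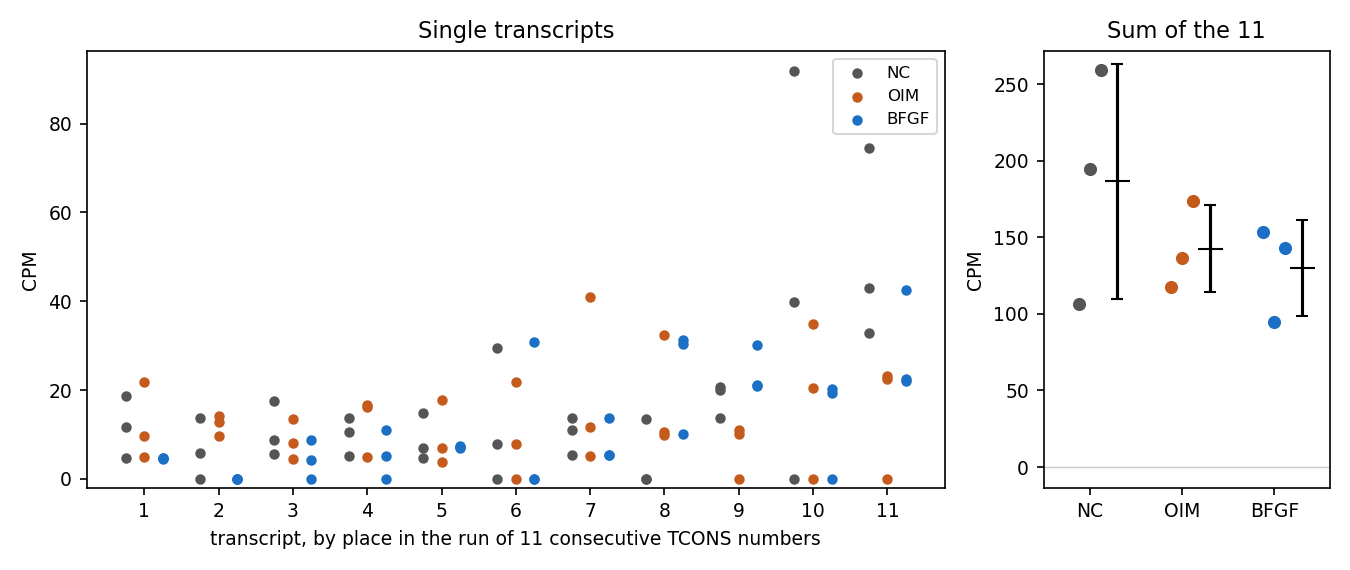
Level in CPM (linear axes) of each transcript in the run of 11 consecutive TCONS numbers (left, 3 points per group) and of their sum (right, points are libraries and black marks the mean ± SD). Transcript 2 is TCONS_00017653, at 0 in all 3 BFGF libraries, and the sum was 130 ± 31.3 CPM in BFGF and 143 ± 28.6 CPM in OIM.

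Such switching was frequent. In 57 of the 430 tested TCONS transcripts (13.3%) and 10 of the 59 ENSSSCT transcripts (16.9%), 1 library held under 1 estimated count and another of the same group held 20 or more, as in 11.5% of the RefSeq-named transcripts. It was seen in 32 of the 108 tested TCONS transcripts whose number had a neighbour (29.6%) and in 25 of the 322 without one (7.76%). The common biological coefficient of variation was 0.640 for TCONS, 0.643 for ENSSSCT and 0.544 for RefSeq-named transcripts, against 0.0602 for genes. With consecutive numbers summed, a step added after the values were seen, 17 of 366 TCONS units were called higher in BFGF and 48 lower. No share over all non-coding transcripts is given for that fit.

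The ENSSSCT transcript called higher in BFGF was ENSSSCT00000053770. It was at 0.342, 0.463 and 0.389 CPM in NC, 0.310, 0.272 and 0.587 CPM in OIM, and 1.15, 1.38 and 1.51 CPM in BFGF. The BFGF libraries lay above all others, with a log2 fold change of 1.77 against OIM (SE 0.36, adjusted p = 0.0158 by edgeR). This call was lost without BFGF replicate 2, BFGF replicate 3, OIM replicate 1 or OIM replicate 2 (adjusted p up to 0.0654 over all alternatives). Without BFGF replicate 3, 2 ENSSSCT transcripts were called lower.

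The ENSSSCT transcript called lower, ENSSSCT00000053319, was the one that held the most estimated counts of its prefix. It stood at 40.6, 41.6 and 46.7 CPM in NC, 33.4, 34.1 and 36.3 CPM in OIM, and 17.9, 17.9 and 23.1 CPM in BFGF. The 3 groups did not overlap and followed the order of the summed level. The log2 fold change was -0.82 between BFGF and OIM (SE 0.13, adjusted p = 0.00525 by edgeR, kept whichever of the 9 libraries was omitted) and -1.13 between BFGF and NC (adjusted p = 0.000803), while the -0.31 between OIM and NC was not significant (adjusted p = 0.805). The ENSSSCT transcript ranked 3 showed the same order, at 11.93, 11.99 and 11.82 CPM in NC, 9.43, 8.64 and 9.55 CPM in OIM and 7.28, 7.64 and 7.44 CPM in BFGF, and was called only between BFGF and NC (log2 fold change -0.68, adjusted p = 0.0052 by edgeR). These values rest on TMM scaling. Between BFGF and NC, 3 ENSSSCT transcripts were called lower with it and 2 with library totals alone.

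**Figure D4:**
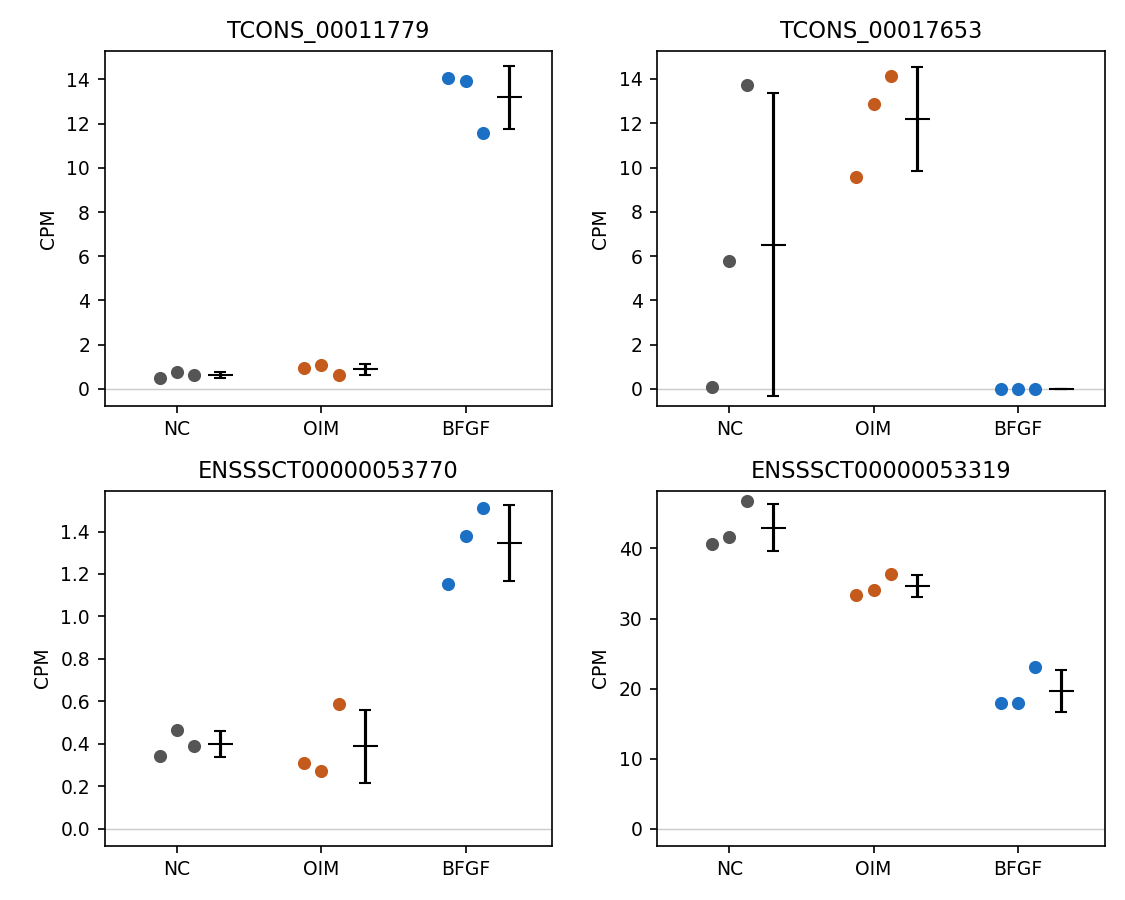
Level in CPM (linear axes) of the 4 transcripts given by identifier in the 3 libraries of each group, with the group mean ± SD in black. The left panels show the called higher transcripts, both with every BFGF library above all others, and the right panels the called lower ones, with TCONS_00017653 at 0 in BFGF but spread from 0.0892 to 13.7 CPM in NC.

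Between OIM and NC no TCONS and no ENSSSCT transcript was called by edgeR, where 0.045% of all non-coding transcripts tested were called higher and 0% lower. At an unadjusted p at or under 0.05 there were 35 TCONS and 2 ENSSSCT transcripts, of which 18 and 0 passed the fold limit. These were 8.14% and 3.39% of those tested at the unadjusted p and 4.19% and 0% with the fold limit, where 6.04% and 4.5% of all non-coding transcripts passed. DESeq2 called 2 TCONS and 0 ENSSSCT transcripts, and limma called none of either prefix. An edgeR fit of genes and non-coding transcripts together called 3 TCONS transcripts higher and 1 lower, and no ENSSSCT transcript, with no share over all non-coding transcripts given. The groups did not overlap for 59 of 430 TCONS transcripts (13.7%) and 7 of 59 ENSSSCT transcripts (11.9%), against 13% of all non-coding transcripts tested. The median log2 fold changes were -0.044 and -0.11. The 45 TCONS transcripts called lower in BFGF against OIM had a median of -0.072 between OIM and NC, and the 19 called higher had a median of -0.067.

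Between BFGF and NC, 22 TCONS transcripts were called higher and 60 lower, and 1 ENSSSCT transcript was called higher and 3 lower. Of all non-coding transcripts tested, 4.5% were called higher and 7.93% lower. With library totals alone the counts were 31 and 41 for TCONS and 2 and 2 for ENSSSCT. The RefSeq-named counts went from 77 and 113 to 111 and 75. Fitted together with genes, 42 and 91 TCONS and 2 and 7 ENSSSCT transcripts were called, with no share over all non-coding transcripts given. The medians over those tested were -0.27 for TCONS and -0.16 for ENSSSCT (-0.038 and 0.083 with library totals alone). The TCONS count called higher was 11 without BFGF replicate 3, 13 without BFGF replicate 2 and 13 without NC replicate 3. The transcript called higher among ENSSSCT was again ENSSSCT00000053770, and its call was lost without BFGF replicate 3, NC replicate 1 or NC replicate 3.

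Genes that process and degrade non-coding RNA were read in the same libraries. Integrator cuts the ends of many non-coding transcripts as they are made, the RNA exosome degrades unstable nuclear RNA from the 3′ end, and other members of the list act in nonsense-mediated decay, 5′-to-3′ decay and microRNA maturation. Of 65 listed symbols, older and newer names included, 60 were in the table and tested. Between BFGF and OIM 11 of the 60 were called higher and none lower, where 17.7% of all genes tested were called higher and 18.4% lower. The share of the list called higher, 18.3%, was thus close to that of all genes. The list's median log2 fold change was 0.21, and 51 of the 60 values were above 0, as were 49.8% of those of all genes. With library totals alone 24 of the 60 (40.0%) and 27.3% of all genes were called higher, and the medians were 0.43 and 0.22. The 11 comprised 6 genes whose symbol begins with EXOSC and 5 that begin with INTS, a grouping made after the values were seen. Of the genes for catalytic subunits of the exosome, EXOSC10 was called higher (log2 fold change 0.71, adjusted p = 7.05e-09 by edgeR), and DIS3 and DIS3L were not called (log2 fold changes 0.32 and 0.30). Not all of the list rose. With TMM scaling RBM7 (-0.37), PCF11 (-0.34), SMG1 (-0.25), ZFC3H1 (-0.21) and C1D (-0.21) had negative log2 fold changes under the fold limit. Each had an adjusted p of 0.0033 or less by edgeR.

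EXOSC2, which encodes an RNA-binding cap subunit of the exosome, rose from 8.28, 9.19 and 8.96 CPM in OIM to 19.1, 20.9 and 22.1 CPM in BFGF (log2 fold change 1.23, SE 0.087, adjusted p = 1.38e-10 by edgeR). EXOSC6, a subunit of the exosome ring, rose from 3.47, 2.89 and 2.89 CPM to 6.88, 7.00 and 7.25 CPM (log2 fold change 1.19, SE 0.14, adjusted p = 1.58e-07 by edgeR). EXOSC5, also of the ring, rose from 4.48, 5.57 and 6.20 CPM to 13.7, 10.3 and 11.2 CPM (log2 fold change 1.12, SE 0.13, adjusted p = 2.43e-07 by edgeR). For each of them the BFGF libraries lay above all OIM and NC libraries. Groups of libraries did not overlap, in either direction, for 72.1% of all genes tested between BFGF and OIM and 73.7% between BFGF and NC. Between OIM and NC none of the 60 was called by edgeR, where 1.49% of genes were called higher and 0.864% lower. No relation between these genes and the level of any TCONS or ENSSSCT transcript was tested.

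**Figure D5:**
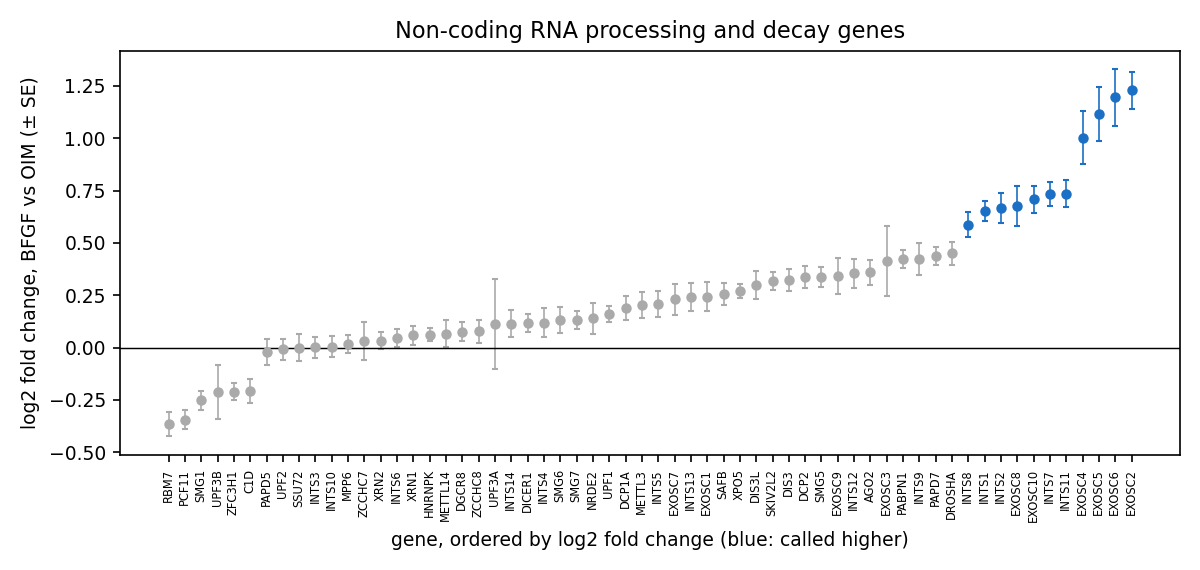
Log2 fold change between BFGF and OIM (points, ± SE, edgeR) of the 60 tested genes of the non-coding RNA processing and decay list, ordered by size. Blue genes were called higher (11, with symbols that begin with EXOSC or INTS), grey genes were not called, and none was called lower.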

How the data were processed

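Cultured porcine aortic VICs in 3 groups (NC, OIM, BFGF) of 3 libraries were sequenced. The deposited table holds whole read counts for genes and estimated counts for non-coding transcripts, as the authors gave them. The program that made the transcript values is not given in the sources used here. Per the labels, total RNA was depleted of ribosomal RNA and the submitters' processing notes name Trimmomatic, HISAT2, StringTie and build Sscrofa11.1, whereas the study's methods describe poly-A selection, Cutadapt and STAR. Poly-A selection would miss transcripts without a tail. The deposited table also holds 6179 rows for circular RNAs, which have no such tail. Which account of the libraries is right was not tested. 19 unnamed empty columns were not used.

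Estimated counts were rounded and tested with edgeR 4.0.16 (R 4.3.3, quasi-likelihood, filterByExpr, all 3 groups in 1 model with 6 residual degrees of freedom), with TMM-scaled gene totals as library sizes. Gene rows were tested separately in the same way. Alternatives used DESeq2 1.42.0, limma 3.58.1 (limma-trend), other scalings, other filters, a replicate block and leaving out each library, and the fit was tested on simulated data. Exact permutation tests were two-sided. A floor of 3 counts per library covers counting error only. Members, gene lists and rules were chosen with earlier results of these data known. For each prefix the called transcript with the largest change in each direction was named, and from the gene list the 3 with the largest change. Other transcripts are given by rank.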

Additional observations from a re-analysis of the deposited data

How the results depend on the processing

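The 4 transcripts given by identifier kept their direction between BFGF and OIM under all 20 alternatives. The calls of TCONS_00011779 and ENSSSCT00000053319 were kept under all 20, that of TCONS_00017653 was lost under 8 and that of ENSSSCT00000053770 under 5. Fitting genes and non-coding transcripts together called 35 TCONS transcripts higher and 79 lower between BFGF and OIM, 3 and 1 between OIM and NC, and 42 and 91 between BFGF and NC, and called 2 ENSSSCT transcripts higher and 4 lower between BFGF and OIM and 2 and 7 between BFGF and NC. The shares over all non-coding transcripts in that fit are not given. With unadjusted p-values the TCONS counts were 37 and 78, 8 and 10, and 42 called higher between BFGF and NC, and the ENSSSCT counts were 2 and 4 between BFGF and OIM and 2 and 7 between BFGF and NC. DESeq2 called 2 TCONS transcripts higher between OIM and NC, 2 ENSSSCT transcripts lower between BFGF and OIM, and 2 higher and 5 lower between BFGF and NC. Without the fold limit 1 TCONS transcript was called lower between OIM and NC, and with no filter 0 ENSSSCT transcripts were called higher between BFGF and OIM. With library totals alone 2 ENSSSCT transcripts were called higher and 2 lower between BFGF and NC, and the log2 ratios of the sums became 0.0453 (TCONS) and -0.0717 (ENSSSCT) between BFGF and OIM and -0.0744 and -0.262 between BFGF and NC. Without the 10 most abundant transcripts they were -0.0735 and 0.0071, and -0.210 and -0.125. At 1 CPM or more, 4.33 fewer TCONS transcripts were detected in BFGF than in NC (difference -4.33). The causes of these differences were not tested.

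Leaving out 1 library at a time gave 11 to 18 TCONS transcripts called higher and 29 to 42 lower between BFGF and OIM, and 11 to 21 higher between BFGF and NC. It gave 0 to 1 ENSSSCT transcripts called higher and 1 to 2 lower between BFGF and OIM, and 0 to 1 higher between BFGF and NC. The log2 fold change of ENSSSCT00000053770 between OIM and NC, -0.015 with all libraries, ran from -0.43 to 0.19.

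Libraries of different groups share replicate numbers, but the deviations of same-numbered libraries from their group means correlated at -0.17 to 0.10, so the numbers were not taken as pairs. With a replicate block 13 TCONS transcripts were called higher and 36 lower between BFGF and OIM, and the adjusted p of TCONS_00017653 was 0.0636.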
